A study of Mus musculus with 25 samples.

Results

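The kinesin motor genes are the mouse genes whose symbol begins with Kif and a digit, together with the kinesin light chain genes Klc1 to Klc4, and 42 of the 23351 genes in the expression table met this rule. They were sorted by known role into 15 transport kinesins, 4 light chains, 12 mitotic kinesins and 11 others. The libraries are RNA-seq of laser-captured mouse brain material labelled oligodendrocyte precursor cells (OPC), the glial progenitors that form myelinating oligodendrocytes. There were 8 libraries from Day 5 of white matter stroke, an ischemic injury of myelinated tracts, 7 from Day 15 of the same injury, and 10 labelled Control. The sources used here do not state the strain, sex, genotype or age of the animals, what the controls underwent, or how areas were picked for capture. The labels tie no library to an animal, so libraries of a group may share one, in which case the p-values are too small, and the spread between libraries may be technical.

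Kinesins are motor proteins that use ATP to walk along microtubules, most of them towards the growing end. Transport kinesins carry vesicles, mitochondria, protein complexes and RNA granules along cell processes, with light chains and adaptors choosing the cargo of kinesin-1. Mitotic kinesins instead build and move the spindle, align chromosomes and complete cytokinesis, and are made mainly in dividing cells. In oligodendrocytes, the mRNA of myelin basic protein travels on microtubules to the processes where myelin is laid down, and in zebrafish kif1b is needed for that mRNA to reach them.

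The mitotic and transport kinesins differ in the letters of their promoters. The stretches below are the 100 bases before the annotated start of 3 mitotic kinesins that hold the element TTTGAA there, and of Kif1b for contrast, all from RefSeq on GRCm38.p6. Capitals mark TTTGAA, the core of the cell cycle homology region of genes repressed outside division, the CCAAT box and the GC box GGGCGG, read on either strand.
Kif11, chr19:37376282-37376381, plus strand: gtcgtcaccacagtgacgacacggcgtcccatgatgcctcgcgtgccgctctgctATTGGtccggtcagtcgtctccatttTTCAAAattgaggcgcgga
Kif15, chr9:122950981-122951080, plus strand: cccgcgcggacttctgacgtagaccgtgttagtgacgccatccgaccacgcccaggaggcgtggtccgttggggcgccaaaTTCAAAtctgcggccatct
Kif22, chr7:127042421-127042520, minus strand: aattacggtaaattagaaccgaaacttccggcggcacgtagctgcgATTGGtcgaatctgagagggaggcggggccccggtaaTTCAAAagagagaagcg
Kif1b, chr4:149307699-149307798, minus strand: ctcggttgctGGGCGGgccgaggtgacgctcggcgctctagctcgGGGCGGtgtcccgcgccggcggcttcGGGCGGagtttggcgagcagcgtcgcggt

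The 3 mitotic stretches were chosen for holding the element, and other mitotic kinesins, such as Kif20b and Kif4, lack it in that stretch. In the 3 it lies close to the start, with 13 bases between them in Kif11, 13 in Kif15 and 11 in Kif22. The element is not limited to mitotic kinesins in such stretches, though its distance from the start varies. It lies 3 bases from the start in Kif26b, 67 and 83 in Kif27, and 38 from an annotated start of the transport kinesin Kif1a. The 100 bases before another annotated Kif1a start lack it. Kif11, Kif22 and Kif26b also carry a CCAAT box upstream of TTTGAA. The Kif1b stretch shown holds 3 GC boxes and no TTTGAA. The 100 bases before another annotated Kif1b start hold 2 GC boxes and a CCAAT box, also without TTTGAA. In the wider window of 250 bases before to 50 after the start, available for 34 of the 42 members, TTTGAA occurred on either strand in 9 of 11 mitotic kinesins, 1 of 11 transport kinesins (Kif1a), 0 of 3 light chains and 2 of 9 others. It occurred in 20.2% of the 27025 genes with such a window. CCAAT was found in 7 of 11 mitotic and 3 of 11 transport kinesins, against 41.1% of all genes. GGGCGG was found in 6 of 11 mitotic and 9 of 11 transport kinesins, against 38.2% of all genes. Kif5a was not among the 34 members with a window. The 100 bases before the start held from 31% G and C in Kif27 to 89% in Kif1c, and the counts make no allowance for such composition. These matches describe the letters in the windows, and binding was not measured.

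The kinesin RNA in these libraries was largely that of a few transport motors. RPKM is meant to correct read numbers for the length of a gene and the size of a library. Its scaling and gene lengths were not given and the RNA was amplified, so rankings between genes are approximate. Kif1b had the highest mean over the 25 libraries (95.4 RPKM), followed by Kif5a (38.7), Kif1a (11.3), Kif5b (9.55) and Kif21a (9.09). The mean of Kif1b rests on Day 5 replicate 3, which supplied 63.5% of its summed RPKM, and over the other 24 libraries Kif1b averaged 36.3 RPKM and Kif5a 39.4, so the order of the first places turned. Kif21a took 69.8% of its sum from Control replicate 8 and averaged 2.86 RPKM without that library, below Kif5c. In all, 13 of the 42 members took the greater part of their summed RPKM from a single library, 7 of them in the class of others. This count was not taken over all genes, so it is no trait particular to kinesins. An RPKM of 1 was reached in at least 1 library by 36 members, and a mean of 1 by 16. The filter used for testing, which asked for 7 or more libraries at 1 RPKM or above, kept 13 of 15 transport kinesins, 1 of 4 light chains, 0 of 12 mitotic kinesins and 1 of 11 others, in all 15 members among 4319 genes.

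**Figure D1:**
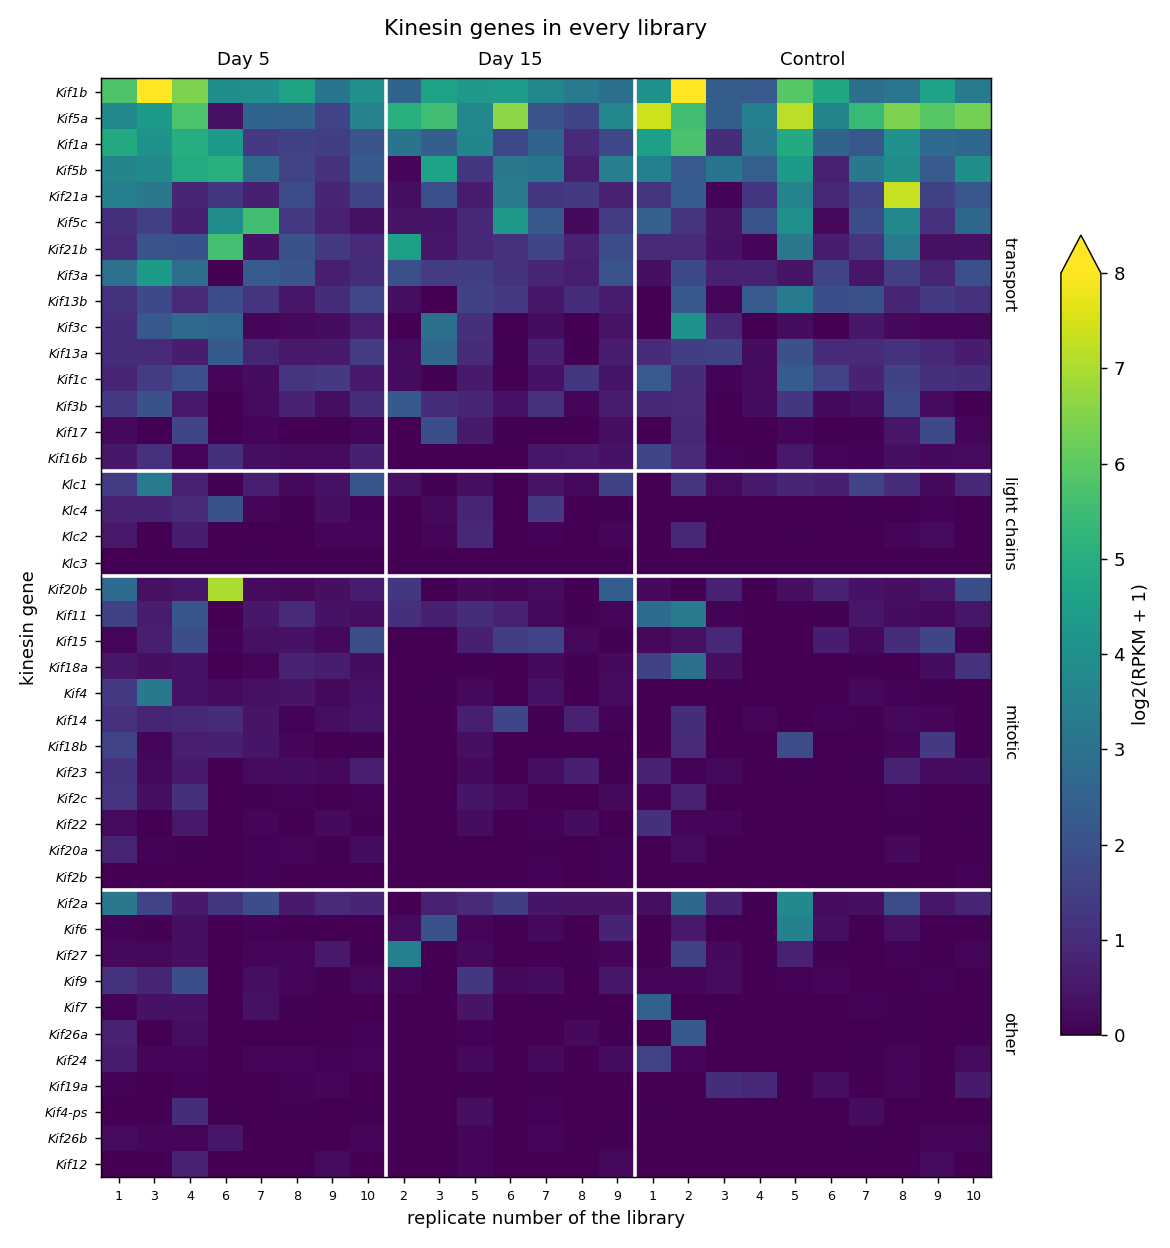
Level of all 42 kinesin genes (rows, by class and falling mean) in all 25 libraries (columns, by group and replicate number), as log2(RPKM + 1), with the colour scale ending at 8. The upper transport rows are bright in most libraries, whereas most mitotic, light chain and other rows are near 0 apart from single bright cells such as Kif20b in Day 5 replicate 6.

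No kinesin gene passed the test in any of the 3 comparisons, on the values as deposited. The test was limma on log2(RPKM + 1) over all 4319 genes, with Benjamini-Hochberg adjustment and a threshold of 0.05. At Day 5 against Control 0 of 15 tested kinesins were called, while 6.04% of all tested genes were called in either direction. That background depended on scale, and it was 0.509% under upper-quartile scaling, 0.764% with equal RPKM sums without Rn45s, the ribosomal RNA precursor, and 0.463% under quantile normalization. At Day 15 against Control 0 of 15 were called, against 0.0926% of all tested genes, and at Day 15 against Day 5 0 of 15, against 0% of all. At an unadjusted p under 0.05, the Day 5 comparison held 1 kinesin (Kif5a, lower) and 1121 genes, the Day 15 comparison 0 kinesins and 383 genes, and Day 15 against Day 5 held 0 kinesins and 633 genes.

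The tested kinesins had a lower median change than the tested genes as a whole in all 3 comparisons. At Day 5 against Control their median log2 change was 0.18 with 8 of 15 above 0, whereas the median of all tested genes was 0.61 with 84.9% above 0. The sign of the kinesin median rested on the scale and on single libraries. It was -0.55 under upper-quartile scaling, -0.53 with equal sums and -0.72 under quantile normalization, where the medians of all genes were 0.10, 0.15 and -0.02. It was -0.096 without Day 5 replicate 6, -0.070 without Control replicate 6 and 0.027 without Day 5 replicate 3. At Day 15 against Control the kinesin median was -0.51 with 4 of 15 above 0, and that of all genes 0.17 with 62.1% above 0. At Day 15 against Day 5 the kinesin median was -0.53 with 2 of 15 above 0, and that of all genes -0.44 with 24.0% above 0. The comparisons share libraries, so these medians are not independent of each other, and the members' medians were given no test.

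**Figure D2:**
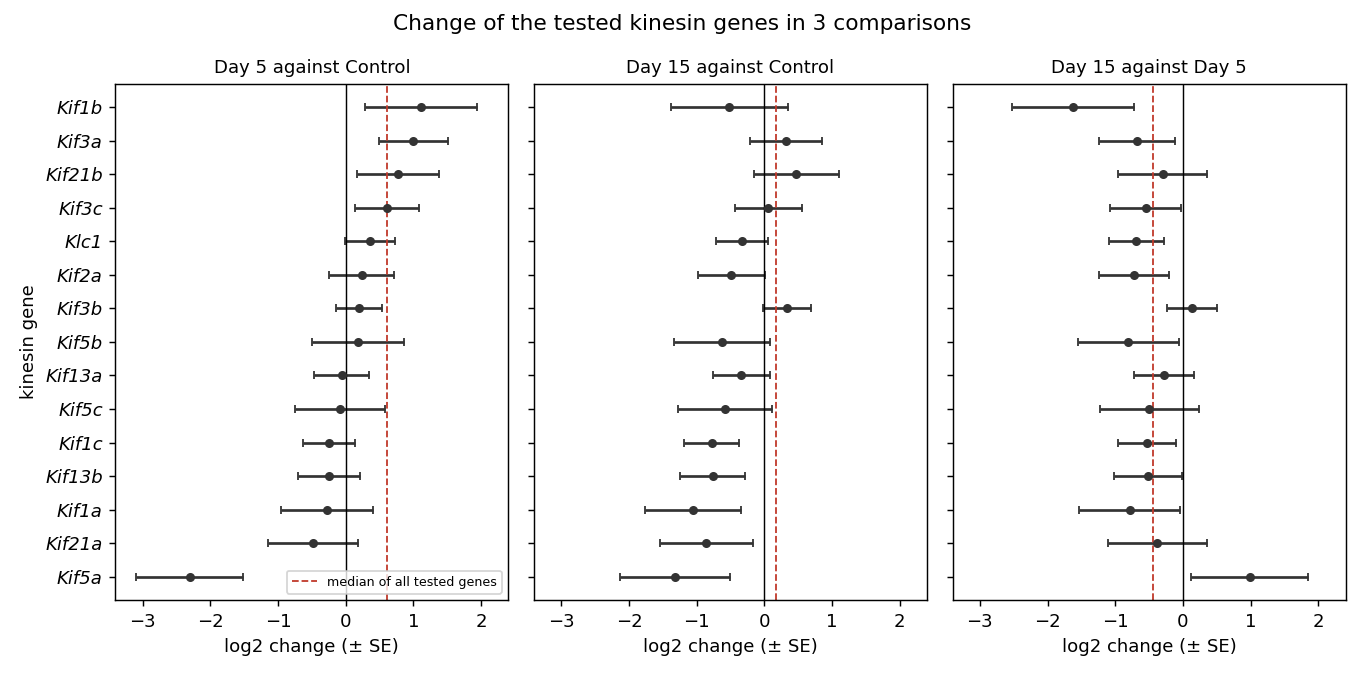
Log2 change with its standard error (bars) of the 15 tested kinesin genes in the 3 comparisons, with the median of all 4319 tested genes as a dashed line. Kif5a lies farthest to the left at Day 5 against Control, at -2.30, and is the lowest of the 15 at Day 15 against Control as well.

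Kif5a, a kinesin-1 heavy chain made chiefly in neurons, where it moves neurofilaments and other axonal cargo, had the largest difference of the tested kinesins at Day 5. Its RPKM was 13.2, 19.7, 52.4, 0.271, 5.01, 4.86, 2.06 and 10.8 at Day 5, lowest 2.16, median 12.3 and highest 97.3 at Day 15, and lowest 4.38, median 52.9 and highest 170 in Control. All 8 Day 5 libraries lay below the Control median and 2 lay below every Control library, but the groups overlapped. Above every Day 5 library lay 5 of 10 Control libraries. These counts were not taken over all genes. The log2 change at Day 5 against Control was -2.30 (SE 0.79), which is 2.91 below the median of all genes and narrowly missed the threshold (limma adjusted p = 0.0612). As deposited, 0.0232% of the tested genes were called lower at Day 5, which is 1 gene, and it was not a kinesin.

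Kif5a was called lower at Day 5 once the libraries were brought to a common scale. Scaling to the upper quartile gave a log2 change of -3.25 (limma adjusted p = 0.0129), at which 0.0926% of all genes were called lower. Scaling to the same RPKM sum without Rn45s gave -3.16 (limma adjusted p = 0.0168; 0.0926% of genes called lower), and quantile normalization gave -3.15 (limma adjusted p = 0.0129; 0.139% called lower). It was also called with a pseudocount of 0.1 (-2.62, limma adjusted p = 0.0264; 0.0695% called lower) and among genes averaging 5 RPKM or more (-2.30, limma adjusted p = 0.0371; 0.175% of 1142 genes called lower). Leaving out Day 5 replicate 4 gave -2.68 (limma adjusted p = 0.0450) and leaving out Control replicate 3 gave -2.63 (limma adjusted p = 0.0488), and these were the libraries of 25 whose removal led to a call. Its log2 change was -1.38 among replicate numbers 1 to 6 (limma adjusted p = 0.502) and -3.45 among numbers 7 to 10 (limma adjusted p = 0.117), so it was below 0 in both ranges and past the threshold in neither.

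**Figure D3:**
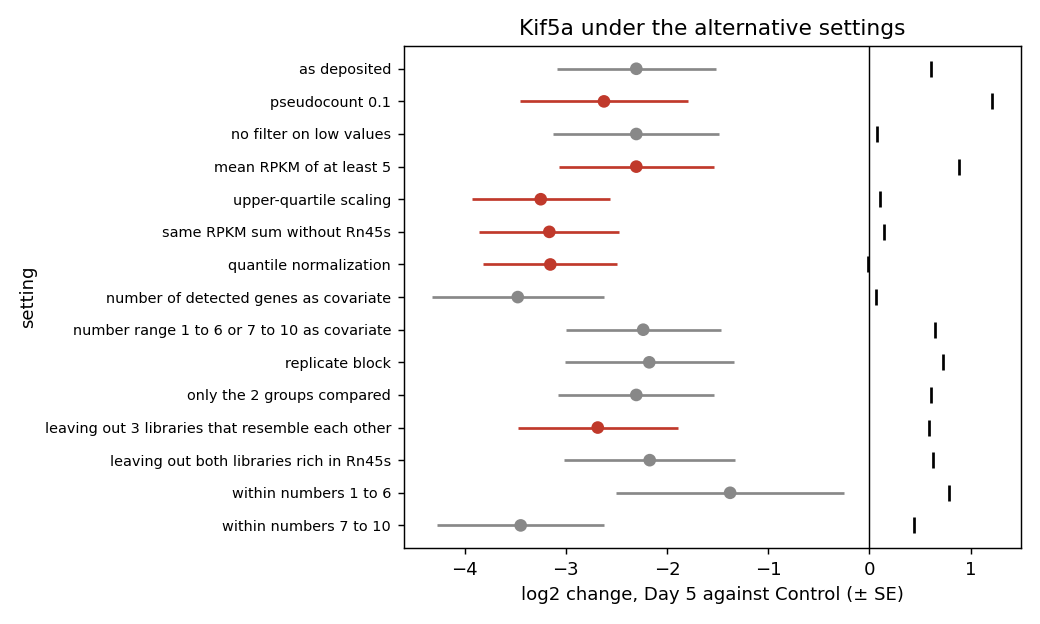
Log2 change of Kif5a at Day 5 against Control, with its standard error (lines), under the values as deposited and 14 alternative settings. Red points passed the adjusted threshold of 0.05 and grey points did not, the short vertical marks give the median change of all tested genes, and every point for Kif5a lies below 0 and below its mark.

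Over all libraries, the Day 15 median of Kif5a, 12.3 RPKM, lay between 7.89 at Day 5 and 52.9 in Control, and its values overlapped both groups. The log2 change was -1.32 at Day 15 against Control (SE 0.82, limma adjusted p = 0.659) and 0.98 at Day 15 against Day 5 (SE 0.86, limma adjusted p = 0.622). Within replicate numbers 1 to 6 these changes were 0.30 and 1.68, and within numbers 7 to 10 they were -3.55 and -0.11. None of them passed the threshold, and Day 15 was intermediate in neither range. Kif5a was the most abundant kinesin in 0 of 8 Day 5, 4 of 7 Day 15 and 6 of 10 Control libraries, and Kif1b in 6 of 8, 3 of 7 and 2 of 10.

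The other kinesin-1 heavy chains were not called, and whether they differed from Kif5a in their change was not tested. Kif5b, the ubiquitous form, had a median of 8.64 RPKM at Day 5, 7.67 at Day 15 and 7.87 in Control, and its log2 change at Day 5 was 0.18 (SE 0.68, limma adjusted p = 0.885). Kif5c, another neuronal form, had medians of 1.35, 0.836 and 3.01 RPKM in the same order and a log2 change of -0.08 at Day 5 (SE 0.67, limma adjusted p = 0.951). Kif5a made up a median of 54.7% of the summed RPKM of the 3 heavy chains at Day 5 (range 0.569 to 72.6%), 74.2% at Day 15 (21.7 to 98.7%) and 80.2% in Control (35.6 to 93.5%). It made up the greater part of that sum in 6 of 8 Day 5, 6 of 7 Day 15 and 9 of 10 Control libraries, so the shares differed in size while overlapping.

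**Figure D4:**
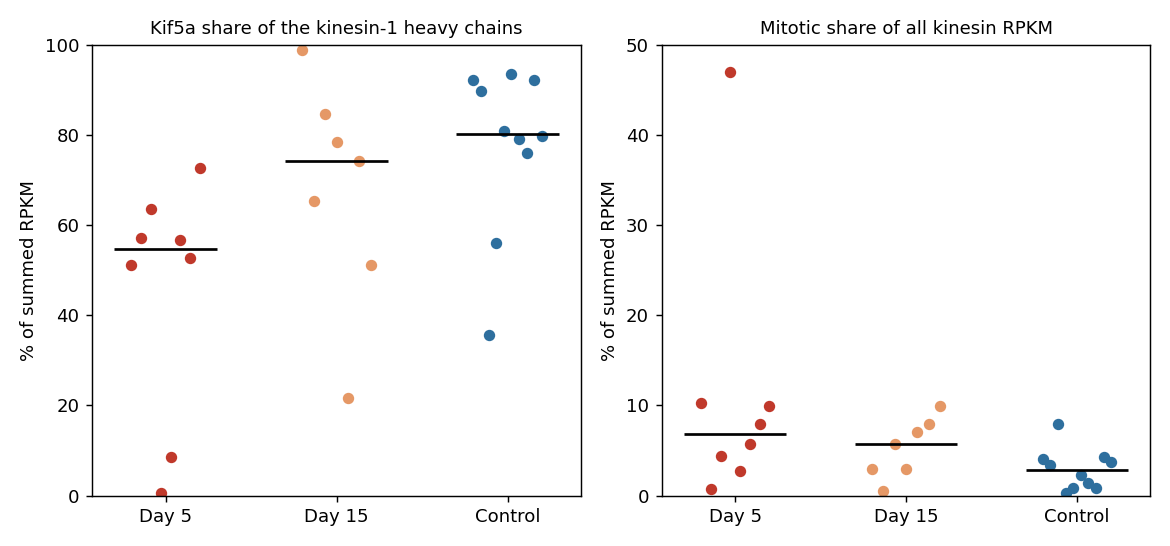
Share of Kif5a in the summed RPKM of Kif5a, Kif5b and Kif5c (left) and share of the 12 mitotic kinesins in the summed RPKM of all kinesins (right), by library and group, with the median as a line. The Kif5a share has medians of 54.7% at Day 5, 74.2% at Day 15 and 80.2% in Control, and the highest mitotic share, 47.0%, belongs to a Day 5 library.

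Markers of other cell types also differed between the groups, and their part in the Kif5a values was not tested. Of 12 neuron markers 2 passed the filter, Snap25 (-0.995 at Day 5, limma adjusted p = 0.254) and Camk2a (-0.80, limma adjusted p = 0.284), and none was at 0 in all libraries. Over the whole list, 6 of the 12 had a higher mean RPKM at Day 5 than in Control (Rbfox3, Nefl, Nefm, Nefh, Stmn2 and Thy1) and 6 a lower one. Thy1 averaged 1.40 RPKM at Day 5 and 0.372 in Control, and Snap25 averaged 0.873 at Day 5 and 3.11 in Control. The summed RPKM of the 12 ran from 1.30 to 7.56 at Day 5, 1.33 to 80.9 at Day 15 and 1.88 to 21.4 in Control, and Nefh was at 0 in 14 of 25 libraries. The summed RPKM of 12 myelinating oligodendrocyte markers ran from 98.4 to 1206 at Day 5, 46.5 to 581 at Day 15 and 142 to 1334 in Control. The 11 tested myelin markers had a median log2 change of -0.83 at Day 5. The sum of 16 microglia and macrophage markers ran from 213 to 2384 at Day 5, 112 to 1961 at Day 15 and 16.7 to 158 in Control, and 8 of the 16 rose at Day 5, when 6.02% of all tested genes rose. Under each of the 3 scalings 2 of the 16 rose, Cd68 and Lyz2. In such bulk material, fewer cells of a type and less RNA per cell cannot be told apart. The OPC markers summed to 21.2 to 112 RPKM at Day 5, 15.3 to 283 at Day 15 and 8.21 to 114 in Control, with 9 of 10 passing the filter, and their median sum was 31.4, 36.1 and 22.6 RPKM in that order, against 254, 172 and 756 for the myelin markers.

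Kif1b, a kinesin-3 motor of mitochondria and synaptic vesicle precursors, was present in every library. It had 54.6, 1514, 87.4, 14.7, 15.3, 24.2, 7.70 and 15.1 RPKM at Day 5. At Day 15 it ran from 5.03 to 23.8 RPKM with a median of 12.0, and in Control from 3.93 to 400 with a median of 12.4. Day 5 replicate 3 stood far above all others, and without it the Day 5 mean was 31.3 ± 29.1 RPKM (SD, n = 7). Only 1 of 8 Day 5 libraries lay below the Control median, yet the groups overlapped and the log2 change of 1.11 at Day 5 (SE 0.83) did not pass (limma adjusted p = 0.388). Without Day 5 replicate 3 it was 0.36 (limma adjusted p = 0.825), and without Control replicate 2 it was 1.61 (limma adjusted p = 0.161). Against the general displacement that change was 0.50 above the median of all genes as deposited and 0.02 above it after upper-quartile scaling, and it turned to -0.83 once detected genes per library entered as a covariate (limma adjusted p = 0.772). At Day 15 the log2 change was -0.51 against Control (SE 0.86, limma adjusted p = 0.923) and -1.63 against Day 5 (SE 0.90, limma adjusted p = 0.392).

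Kif1a and Kif1c, the other kinesin-3 motors of this subfamily, were not called either. Kif1a, the neuronal carrier of synaptic vesicle precursors, had a median of 9.58 RPKM at Day 5, 4.37 at Day 15 and 7.23 in Control. At Day 5 the libraries with replicate numbers 1, 3, 4 and 6 held 15.9 RPKM or more and those with numbers 7 to 10 held 3.30 or less. Those libraries also differed in scale. Their RPKM sums without Rn45s were 35398 to 69709 in numbers 1, 3, 4 and 6, 15070 to 22372 in numbers 7 to 9, and 39845 in number 10. The log2 change of Kif1a was -0.27 at Day 5 (SE 0.68, limma adjusted p = 0.824) and -1.06 at Day 15 (SE 0.71, limma adjusted p = 0.703), both against Control. Its Day 5 change was 0.91 within numbers 1 to 6 (limma adjusted p = 0.646) and -1.31 within numbers 7 to 10 (limma adjusted p = 0.312). Kif1c had a median of 1.04 RPKM at Day 5, 0.300 at Day 15 and 1.11 in Control. Of 7 Day 15 libraries 6 lay below the Control median, and the log2 change at Day 15 against Control was -0.78 (SE 0.40, limma adjusted p = 0.582), the smallest p of the kinesins in that comparison. Kif13b, a kinesin-3 motor that binds the scaffold protein Dlg1, had medians of 1.30 RPKM at Day 5, 0.519 at Day 15 and 2.19 in Control and a log2 change of -0.76 at Day 15 against Control (SE 0.48, limma adjusted p = 0.659).

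Kif3a, the kinesin-2 subunit of intraflagellar transport and ciliary assembly, had the second smallest p at Day 5. Its RPKM was 6.93, 19.7, 6.43, 0, 3.87, 3.28, 0.644 and 1.07 at Day 5, ran from 0.591 to 3.14 with a median of 1.69 at Day 15, and from 0.246 to 2.91 with a median of 0.742 in Control. In 5 of 8 Day 5 libraries it exceeded every Control library, a count not taken over all genes, and in 1 it was listed at 0. The log2 change of 0.996 (SE 0.51) did not pass (limma adjusted p = 0.206). Its partners Kif3b and Kif3c had log2 changes of 0.20 and 0.61 at Day 5, and Kifap3, the accessory subunit of the same motor, of 0.59 (limma adjusted p = 0.390).

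**Figure D5:**
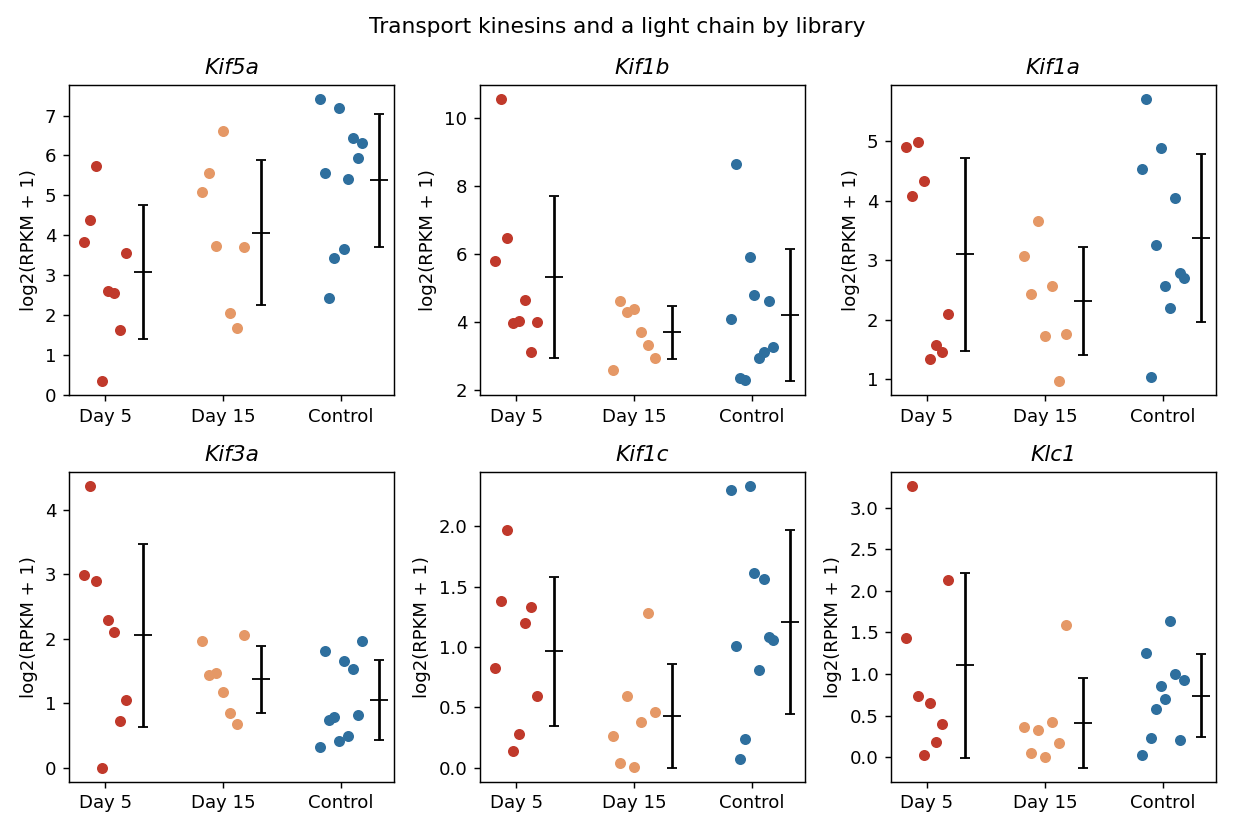
Level of 5 transport kinesins and the light chain Klc1 in each library, as log2(RPKM + 1) on a separate vertical scale per gene, with the group mean and SD as bars to the right of the points. All 8 Day 5 points of Kif5a lie below the Control median, and 5 Day 5 points of Kif3a lie above every Control point. Such counts were not taken over all genes. A Day 5 point of Kif1b stands apart at 1514 RPKM.

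The light chains, which link kinesin-1 to its cargo, had lower median RPKM than the heavy chains in every group. Klc1 had a median of 0.623 RPKM at Day 5, 0.252 at Day 15 and 0.716 in Control, and its log2 change was 0.36 at Day 5 against Control (SE 0.37, limma adjusted p = 0.551) and -0.69 at Day 15 against Day 5 (SE 0.40, limma adjusted p = 0.427). Klc2 reached 0.559 RPKM at most at Day 5, 0.892 at Day 15 and 0.863 in Control. Klc3 was at 0 in 19 of 25 libraries. Klc4 was above 0 in all 8 Day 5 libraries, from 0.0266 to 2.95 RPKM. It was at 0 in 2 of 7 Day 15 libraries and reached 1.53 in another. In Control it was at 0 in 5 of 10 and reached 0.0518 at most, a value that 7 of 8 Day 5 libraries exceeded. How many of all genes separated to this extent was not counted, and genes above 0 numbered 17363 at Day 5 and 13079 in Control on average. The Control libraries with Klc4 at 0 were replicates 1 and 3 to 6, which listed 9588 to 10965 genes above 0. The other Control libraries listed 14142 to 17407. Day 5 replicate 6, where Klc4 was at 2.95 RPKM, listed 9210. Klc4 was below the filter, and in a fit of all 22610 genes above 0 its log2 change at Day 5 was 0.62 (SE 0.22, limma adjusted p = 0.237), so it was not called. The Day 5 libraries also held more genes at an RPKM of at least 1, 4217 on average, against 2980 at Day 15 and 2467 in Control, and its part in these low values was not tested.

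The mitotic kinesins were scarce in all groups. Of the 12, 10 reached an RPKM of 1 in some library, none did so in more than 6 libraries, and a mean of 1 was reached by Kif20b and Kif11. Kif20b, a cytokinesis motor, had 5.99, 0.287, 0.404, 129, 0.189, 0.133, 0.254 and 0.543 RPKM at Day 5, a median of 0.148 at Day 15 and of 0.281 in Control. Day 5 replicate 6 alone held 86.9% of its summed RPKM. Kif11, the motor that slides spindle microtubules apart, ran from 0.0197 to 3.38 RPKM at Day 5, 0.0285 to 1.17 at Day 15 and 0 to 8.92 in Control. Kif15, which assists Kif11 in keeping the spindle bipolar, reached 2.79 RPKM at Day 5, 2.04 at Day 15 and 2.16 in Control.

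On average 11.1 of the 12 mitotic kinesins were above 0 at Day 5, 7.71 at Day 15 and 8.30 in Control. All genes above 0 numbered 17363 at Day 5, 13814 at Day 15 and 13079 in Control, so the ratio of Day 5 to Control was 1.34 for the mitotic kinesins and 1.33 for all genes. Their share of all kinesin RPKM had a median of 6.82% at Day 5, 5.68% at Day 15 and 2.83% in Control, with overlapping ranges. The share also depends on the other kinesins. The summed RPKM of the mitotic kinesins had medians of 8.06, 3.21 and 2.82 in that order, and means of 22.8, 3.11 and 4.88. The sum of all kinesins had medians of 127, 63.1 and 120. The chromokinesin Kif4 was above 0 in all 8 Day 5 libraries, with a median of 0.319 RPKM and a highest value of 8.34, whereas it reached 0.303 at Day 15 and 0.133 in Control. The lowest Day 5 value of Kif4 was 0.136 RPKM, barely above that Control maximum. How many of all genes separated in this way was not counted, and Kif4 was picked after its values were seen. In the fit of all genes above 0 its log2 change was 0.79 (SE 0.28, limma adjusted p = 0.230), so it was not called, and reads of its pseudogene Kif4-ps cannot be kept apart from its own with certainty. In that fit 24 genes in all were called at Day 5, and 0 of the 42 kinesins.

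Among the other kinesins, Kif2a, which depolymerises microtubule ends, had a median of 1.19 RPKM at Day 5, 0.381 at Day 15 and 0.526 in Control. Its log2 change was 0.24 at Day 5 against Control (SE 0.48, limma adjusted p = 0.779) and -0.73 at Day 15 against Day 5 (SE 0.52, limma adjusted p = 0.528). Kif6 was near 0 except in Control replicate 5, at 10.4 RPKM, and Day 15 replicate 3, at 3.04.

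Genes that work with kinesins were examined as lists beside them. Of 18 tested dynein and dynactin genes, the motor complex that moves towards the opposite microtubule end, 2 rose at Day 5 against Control and 0 fell, while 6.02% of all tested genes rose. The list's median log2 change was 0.64, beside 0.61 for all genes, and under each of the 3 scalings none of the 18 was called. The 2 genes were Capza2, a capping protein subunit of dynactin (1.95, SE 0.57, limma adjusted p = 0.0349), and the dynein light chain Dynlt3 (1.97, SE 0.63, limma adjusted p = 0.0487). Capza2 ran from 2.21 to 36.4 RPKM at Day 5, 0.133 to 12.5 at Day 15 and 0.175 to 4.56 in Control. None of 16 tested cargo adaptors was called at Day 5 (median 0.03), the smallest p being those of Arl8b (1.40, limma adjusted p = 0.0835) and Arl8a (1.31, limma adjusted p = 0.0838), small GTPases that couple lysosomes to kinesin. None of 24 tubulin and microtubule-associated genes was called (median -0.08), with Clasp1 at 1.36 and Clasp2 at 1.55. None of 15 genes of myelin mRNA transport was called (median 0.36), with the transported mRNA Mobp at -1.72 (limma adjusted p = 0.140) and Ncl at 1.37 (limma adjusted p = 0.158). None of 7 tested cell division genes was called (median 0.82), with Mki67 at 1.45 (limma adjusted p = 0.150) and Prc1, a partner of the midzone kinesins, at 1.04 (limma adjusted p = 0.135). At Day 15 none of these lists held a called gene in either comparison.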

How the data were processed

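RNA from laser-captured material was amplified with the Nugen Ovation kit before library preparation, per the labels' protocols. The authors deposited RPKM, 1 column per library. The tools named are STAR 2.1.4a, HTSeq and CASAVA 1.8.3, with mouse build mm9, per the submitters' processing notes. The scaling of RPKM, its gene lengths and its read numbers were not given in the sources used here, so depth is unknown and counting intervals cannot be had. Amplification of little RNA can drop rare transcripts at random and inflate single ones. RPKM sums per library ran from 7583 to 127878. No columns were identical.

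The 4319 genes that reached 1 RPKM in 7 or more libraries were fitted as log2(RPKM + 1), which understates changes of low genes, with limma 3.58.1 in R 4.3.3 (trend and robust options, 3 groups in one fit, two-sided), adjusted over all tested genes. The fit was checked on simulated independent normal values with the mean and spread of each gene. These held no differences in library scale and no single extreme libraries, so the check does not cover such features of the data. Strand is not given, so overlapping genes and close paralogs are uncertain. Motifs were counted in RefSeq promoter windows (GRCm38.p6) with Python 3.11.15. Alternatives were another pseudocount, other filters, 3 scalings, covariates, a replicate block, number ranges, a fit of the compared groups alone and leaving out libraries; leaving out both libraries rich in Rn45s was added after seeing the data.

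Members, classes and lists were chosen with earlier results of these data known. Members given in detail are Kif1b, called members, the 3 highest of each class (2 of the others) and the 3 smallest p per comparison. Of lists, called genes and the 2 smallest p at Day 5 are named. Kif5b, Kif5c, Kif4, Kif3b, Kif3c, Klc3, Klc4 at Day 5 and Kifap3 were added after their values were seen, as partners or for their values.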

Additional observations from a re-analysis of the deposited data

Results flagged for a closer look

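Of 42 sets of values (14 kinesins in 3 groups), 9 had 1 library far from the rest by Dixon's criterion on log2(RPKM + 1). Chance gives about 5% for normally distributed values, which many of these near 0 are not. Several of the 14 were picked for a high mean, which a single library can make, so the count does not measure an excess. Kif1b stood at 1514 RPKM in Day 5 replicate 3, with the others at 87.4 or less. Kif20b stood at 129 RPKM in Day 5 replicate 6, with the others at 5.99 or less, and at 2.81 in Control replicate 10, with the others at 0.667 or less. Kif6 stood at 0.249 RPKM in Day 5 replicate 4, at 3.04 in Day 15 replicate 3 and at 10.4 in Control replicate 5. Klc1 stood at 2.01 RPKM in Day 15 replicate 9. Klc2 stood at 0.892 RPKM in Day 15 replicate 5 and at 0.863 in Control replicate 2. All 9 were the highest library of their group.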

How the results depend on the processing

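The count of called kinesins at Day 5 against Control was 0 as deposited and 1 (Kif5a) with a pseudocount of 0.1, a mean RPKM of at least 5, each of the 3 scalings and without Day 5 replicate 4 and Day 15 replicates 5 and 6 together, and 0 to 1 leaving out single libraries. It stayed 0 in both Day 15 comparisons under all 39 alternatives. Kif5a at Day 5 was lower in every alternative, but not called without the filter (adjusted p = 0.235), with detected genes per library as a covariate (-3.47, adjusted p = 0.104), a replicate block (-2.18, adjusted p = 0.0742), the number range as a covariate (adjusted p = 0.0536), only the compared groups (adjusted p = 0.0537), without both libraries rich in Rn45s (-2.17, adjusted p = 0.104) or within either number range. Libraries sharing a replicate number did not deviate together (highest correlation 0.0842 over 20 pairs, beside 0.147 over 186 pairs of different numbers). The highest correlation of log2 values between any libraries was 0.425, so a pairing by number could go unseen in such noise. The block left the counts of calls at 0. The median of all genes at Day 5 was 0.61 as deposited and 0.10, 0.15 and -0.02 under upper-quartile, equal-sum and quantile scaling. The tested kinesins' median at Day 5 ran from -0.096 to 0.29 leaving out single libraries. Directions that turned belonged to uncalled changes. At Day 5 they were Kif2a (-0.19, -0.22 and -0.35 under those scalings, -0.35 with detected genes, -0.021 to 0.54 leaving out single libraries, the lowest without Day 5 replicate 1), Klc1 (-0.14, -0.11, -0.30 and -0.23 in the same order, -0.10 within numbers 7 to 10), Kif1b (-0.83 with detected genes) and Kif1a (-1.31 within 7 to 10 but 0.081 with the block, 0.036 without both libraries rich in Rn45s, 0.91 within numbers 1 to 6). At Day 15 against Control they were Kif3a (-0.10 with equal sums, -0.0133 within 7 to 10) and Kif5a (0.30 within 1 to 6). At Day 15 against Day 5 they were Kif13b (0.050 with quantiles), Kif1a (0.20 with detected genes, 0.14 within 7 to 10) and Kif5a (-0.11 within 7 to 10). The cause was not tested. Unknown depth limits the statements on kinesins below 1 RPKM.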
